A study of Mus musculus with 42 samples.

Results

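The olfactory receptors of mouse chromosome 14 were followed in RNA sequencing of main olfactory epithelium, both in the RNA held by phosphorylated ribosomes and in the RNA of the whole tissue. They are the rows of the table whose gene has a symbol of Olfr plus a number in the GENCODE M21 annotation and lies on GRCm38 chromosome 14, which gave 39 of the 1169 receptor rows among 44674 rows in all. All 39 are annotated as protein coding, Olfr721-ps1 with its pseudogene symbol included, and 38 passed the filter on low counts. Olfr746, with 0 to 8 counts in a library, did not pass and is described only by its level. The annotation places 42 such genes on the chromosome, and Olfr730, Olfr737-ps1 and Olfr277-ps1 are not analysed here.

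Olfactory receptors are G protein-coupled receptors on the cilia of olfactory sensory neurons, and a mature neuron expresses a single receptor gene chosen from the whole family. The genes lie in clusters, and enhancers spread between them, bound by Lhx2, Ebf factors and the adaptor Ldb1, act on the choice. The H enhancer of chromosome 14 is the best known of these, and the neighbouring Olfr1507, Olfr1508 and Olfr1509, known in older work as MOR28, MOR10 and MOR83, depend on it.

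Adult male C57BL/6NCrl mice, 8 to 12 weeks old, were kept for 1 h without odour or with the odour of NCD (normal chow), BFD (a bacon-flavoured diet matched to the chow in nutrients) or HFDlard (a high-fat diet based on lard). The epithelia of 4 mice were combined into a pool, and the question put to the pools was which receptors each food odour activates. No odour was given to 5 pools (replicates 1, 2, 3, 4 and 6), NCD odour to 6, BFD odour to 5 and HFDlard odour to 5 (replicates 1, 2, 3, 5 and 6). All mice shared 1 strain, with no transgene or deletion named in the labels, and a pool hides how its 4 animals differed. In pS6-ribotrap, an antibody against phosphorylated ribosomal protein S6, a mark that neurons gain when they fire, pulls down ribosomes with the messenger RNA on them. A pulldown and an input of the same homogenate were sequenced for every one of the 21 pools, 42 libraries in all.

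Depth was 25392651 to 36738192 counts in the pulldown libraries and 24839380 to 36781440 in the inputs, of which the 39 receptors held 4544 to 11874 in a pulldown library and 4800 to 9604 in an input library. Ribosomal RNA took a mean of 24.7% of the counts in the inputs without odour against 10.6 to 14.2% in the inputs with an odour, and 19.1% against 10.5 to 11.7% in the pulldowns, so this share moved with the contrast between odour and no odour. All 10 mature sensory neuron markers were detected in every library, with a summed level of 15400 to 19480 CPM, which are counts scaled to a common normalised library size, in the inputs. The pulldown held other cells too. Without odour, 6 of 6 erythroid and 6 of 6 macrophage markers were higher in pulldown than in input at an adjusted p under 0.001, while 5 of 5 supporting cell markers were lower. Of all genes, 19.8% were higher and 16% lower. Of 6 neutrophil markers 3 were higher and 1 lower, and of 5 progenitor markers 2 were higher and 1 lower. Of the neuron markers, 6 of 10 mature and 5 of 6 immature ones were higher. Of the rest, 3 of 4 horizontal basal cell and 2 of 4 gland markers were lower.

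With gaps of over 500 kb between neighbours taken as borders, the 39 genes fell into 4 groups. The first holds Olfr720, Olfr31 and Olfr721-ps1 (chr14:14171738-14410095 in GRCm38). The second runs from Olfr722 to Olfr750 with 27 genes (chr14:49894258-51074435), and the third from Olfr221 to Olfr1507 with 8 (chr14:52033962-52495749), the last of them beside the H enhancer. Olfr49 stands alone (chr14:54278253-54284939). The coding sequence of every member lies in a single exon of 921 to 1062 bases. All start with ATG except Olfr721-ps1, whose annotated coding sequence of 972 bases does not.

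Many members are near copies of each other, and this bears on every value below, because reads that match several copies were divided between them by estimation. Over 10% of the 31-base words in the transcripts of 22 members occur in another gene, and 9 members share less than 1%. The closest copies are Olfr723 and Olfr724, with 98.5% of aligned coding bases the same, and Olfr747 and Olfr749 with 98.4%. Olfr1510 and Olfr1511 share 97.3%, Olfr741 and Olfr742 96.4%, and Olfr1507 and Olfr1508 93.0%. Each pair below is shown in the 90 bases of coding sequence where its copies differ most, from GRCm38 and in the direction of transcription, with the differing bases in capitals. Olfr749 (chr14:50736361-50736450, minus strand) is the receptor that rose with both BFD and HFDlard odour. It differs from Olfr747 (chr14:50680833-50680922, minus strand) by 7 bases in this window and is identical to it over a run of 303 bases elsewhere.
Olfr749: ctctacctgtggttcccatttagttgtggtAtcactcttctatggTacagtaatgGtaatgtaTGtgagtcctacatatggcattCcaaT
Olfr747: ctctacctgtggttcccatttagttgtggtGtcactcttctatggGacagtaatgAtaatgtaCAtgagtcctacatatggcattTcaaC
Olfr1511 (chr14:52390225-52390314) and Olfr1510 (chr14:52410324-52410413), both on the minus strand, differ by 10 bases here and share an identical run of 274 bases. Their ratios of pulldown to input without odour lay on opposite sides of 0.
Olfr1511: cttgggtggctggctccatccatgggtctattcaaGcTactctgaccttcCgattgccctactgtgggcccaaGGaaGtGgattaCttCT
Olfr1510: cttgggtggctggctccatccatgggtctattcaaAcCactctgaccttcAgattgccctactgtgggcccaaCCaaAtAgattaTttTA
Olfr1508 (chr14:52463134-52463223) and Olfr1507 (chr14:52490089-52490178), also on the minus strand, differ by 15 bases in this window. They are the members whose input levels differed between BFD odour and no odour.
Olfr1508: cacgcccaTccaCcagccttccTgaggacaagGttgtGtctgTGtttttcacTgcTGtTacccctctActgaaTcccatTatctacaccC
Olfr1507: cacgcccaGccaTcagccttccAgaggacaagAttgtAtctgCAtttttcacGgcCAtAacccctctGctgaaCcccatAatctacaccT
Olfr721-ps1 (chr14:14407297-14407386, plus strand) has no close copy. Even its nearest relative on the chromosome, Olfr31 (chr14:14328180-14328269, plus strand), matches 68.6% of the aligned coding bases and differs by 43 in this window.
Olfr721-ps1: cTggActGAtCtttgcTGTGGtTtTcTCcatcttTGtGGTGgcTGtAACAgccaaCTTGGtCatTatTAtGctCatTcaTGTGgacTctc
Olfr31: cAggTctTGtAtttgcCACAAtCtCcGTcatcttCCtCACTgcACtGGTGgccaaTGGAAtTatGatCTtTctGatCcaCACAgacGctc

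In the whole tissue the 39 receptors covered a wide range of levels, given here per length as CPM per kb of exon over the 21 inputs. Olfr1507 was highest at 22.3 ± 4.40 (SD, n = 21), the 2nd of all 1169 receptor rows, and Olfr727 followed at 17.8 ± 2.24 as the 3rd. Olfr726 (9.69 ± 1.13), Olfr31 (4.24 ± 0.405) and Olfr1508 (3.50 ± 0.644) came next. The least expressed of the 38 that passed the filter were Olfr750 at 0.117 ± 0.0346 and Olfr734 at 0.114 ± 0.0340, and Olfr746 had 0.0583 ± 0.0560. Of the 38 pairs of neighbours in this order, 4 were further apart than the sum of their SDs, namely Olfr727 and Olfr726, Olfr726 and Olfr31, Olfr741 and Olfr1509, and Olfr221 and Olfr750. The remaining neighbours, Olfr1507 and Olfr727 among them, did not differ beyond that spread. Part of the exons of Olfr31 lies under Gm48860 on the opposite strand, over 951 bases or 22.7% of its exon bases. Whether the counting used strand is not given in the sources used here, so reads of the pair cannot be told apart.

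**Figure D1:**
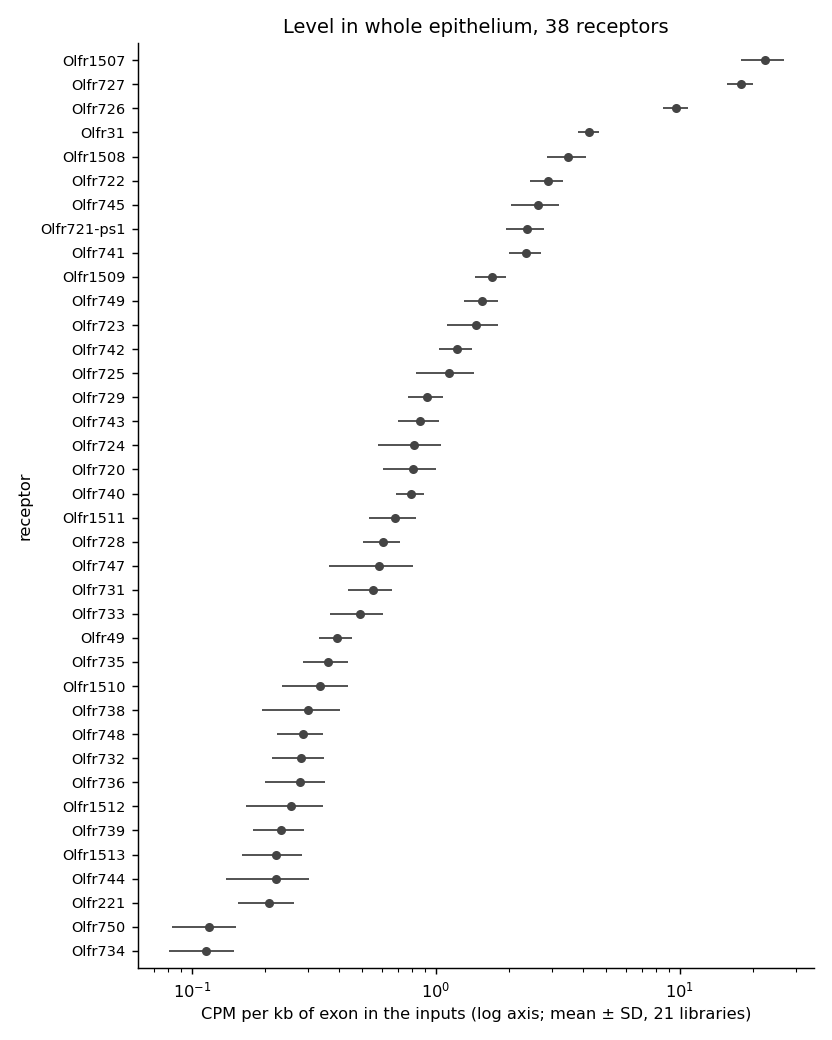
Level of the 38 receptors that passed the filter in whole epithelium, as CPM per kb of exon on a log axis (mean ± SD over 21 input libraries). Olfr1507 and Olfr727 lead at 22.3 and 17.8 CPM per kb, and Olfr750 and Olfr734 lie near 0.1.

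Taken as a share of all receptor counts, the chromosome 14 receptors held 8.92 ± 0.616% in the inputs of the 5 pools without odour (mean ± SD), 9.13 ± 0.0798% in the 6 NCD inputs, 10.2 ± 0.181% in the 5 BFD inputs and 9.92 ± 0.186% in the 5 HFDlard inputs. In the pulldowns the share was lower in every group, with 7.98 ± 0.664%, 7.01 ± 0.204%, 7.91 ± 0.388% and 8.42 ± 0.145% in the same order. Summed counts follow the most abundant members, so these shares do not describe a typical receptor. Olfr1507 had a median of 1956 counts in the inputs and 1313 in the pulldowns, and Olfr727 had 1517 and 1758.

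The ratio of pulldown to input without odour gives each receptor's starting point. Of the 38 members tested, 7 were higher in pulldown than in input and 2 were lower at an adjusted p under 0.001 (edgeR's quasi-likelihood test, Benjamini-Hochberg over all genes tested, 2-sided), against 19.8% and 16% of all genes, or 12% and 10.4% of the 907 receptors tested. The median log2 ratio of the 38 was 0.08, with 22 above 0, beside 0.01 for all genes and -0.19 for the receptors. As a share of the 38, 7 is 18.4%, near the background of all genes, and 2 is 5.26%.

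All 7 receptors that were higher in pulldown belong to the group from Olfr722 to Olfr750. Olfr742 had the largest ratio, with log2 values of 1.53, 1.32, 1.08, 1.14 and 0.93 in pools 1, 2, 3, 4 and 6, so every pool lay above 0. Its fitted log2 ratio was 1.21 ± 0.12 (SE), or 2.32-fold, with an adjusted p of 2.8e-09 in edgeR's test. Its near copy Olfr741 gave 0.99, 0.95, 1.12, 1.20 and 0.59, and a fitted ratio of 0.97 ± 0.09 with the smallest adjusted p of the 38, 2.01e-09. With the counts of both added up, the log2 ratio of the pair was 1.05.

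Olfr743, next along the chromosome, had log2 ratios of 1.06, 1.78, 1.07, 0.73 and 0.72 and a fitted ratio of 1.07 ± 0.15 (edgeR, adjusted p = 1.29e-06). Olfr741, Olfr742 and Olfr743 are thus neighbours that all stood above their inputs in each of the 5 pools. They are not separate measurements, since Olfr743 matches 94.5% of the aligned coding bases of Olfr742, and it was not part of the sum. Olfr739, Olfr740 and Olfr744, which lie beside these neighbours, had fitted log2 ratios of 0.21, 0.41 and -0.44 and did not pass. Olfr723 reached 1.08 ± 0.18 (adjusted p = 1.1e-05 in edgeR's test), though its pools spread from 0.59 to 2.04. Summed with Olfr724 its log2 ratio was 0.92. Olfr735 (1.00 ± 0.18), Olfr722 (0.95 ± 0.13) and Olfr749 (0.64 ± 0.13) complete the set. Olfr735 and Olfr749 no longer passed when the ribosomal RNA share entered the fit, and Olfr749 also not without no-odour pool 1 or pool 6.

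The 2 members lower in pulldown were Olfr728 and Olfr1507. Olfr728 had log2 ratios of -1.10, -1.01, -1.23, -1.25 and -0.99, all within a narrow range, and a fitted ratio of -1.14 ± 0.15, or 0.454 of the input (edgeR, adjusted p = 3.05e-07). Olfr1507 gave -0.70, -0.49, -0.72, -0.32 and -0.18, below 0 in each pool, with a fitted -0.48 ± 0.08 (edgeR, adjusted p = 2.69e-05). Without a term for the pool, Olfr1507 did not pass (log2 ratio -0.43, adjusted p = 0.0111). Olfr1508, its near copy, had -0.31 ± 0.08 and missed the threshold with an adjusted p of 0.002.

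Just outside the threshold lay Olfr1510 with a log2 ratio of 1.01 ± 0.25 (edgeR, adjusted p = 0.00127), while its near copy Olfr1511 had -0.92 ± 0.29 (adjusted p = 0.00857). These opposite values came from 20 to 34 and 3 to 26 pulldown counts. With the counts of both copies added up the log2 ratio of Olfr1510 and Olfr1511 was -0.07, with an adjusted p of 0.75.

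**Figure D2:**
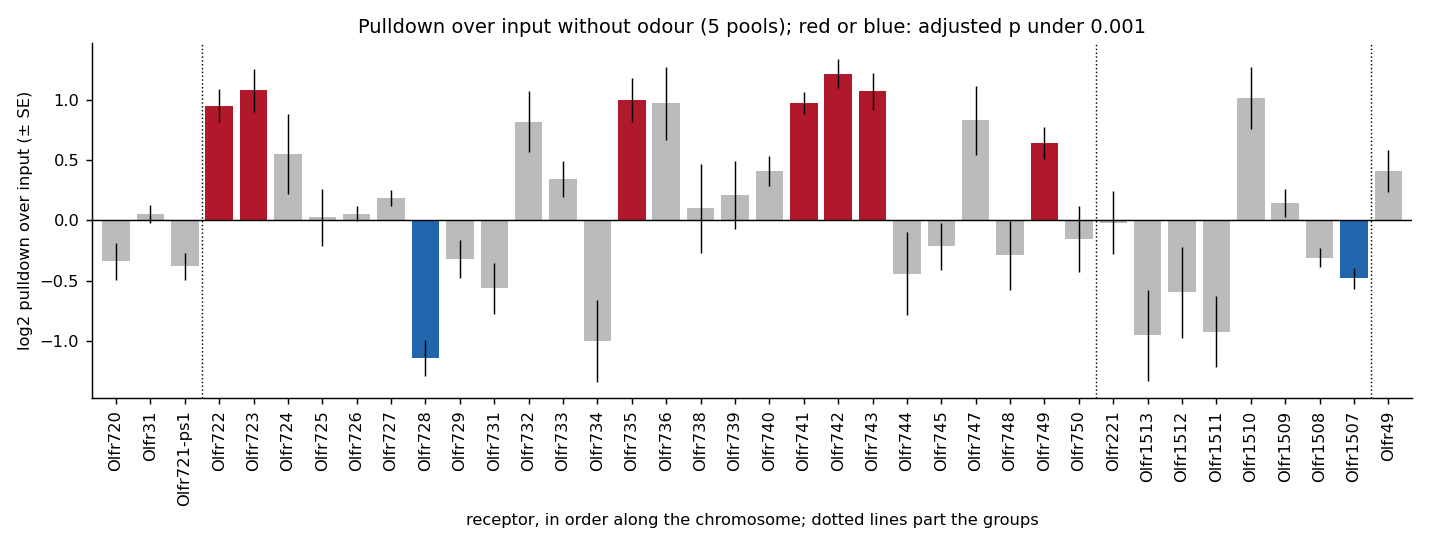
Log2 ratio of pulldown to input without odour (bars, with SE) for the 38 receptors in order along the chromosome, fitted on 5 pools, with red and blue for those at an adjusted p under 0.001. The 7 red bars, up to 1.21 for Olfr742, all stand between the first and the next dotted border, and the blue bars are Olfr728 and Olfr1507.

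By group along the chromosome, the median log2 ratio without odour was -0.34 in the 3 genes from Olfr720 to Olfr721-ps1 and 0.28 in the 26 tested genes from Olfr722 to Olfr750. It was -0.39 in the 8 genes from Olfr221 to Olfr1507, and Olfr49 had 0.41. The spread inside the large group, from -1.14 to 1.21, was wider than the distance between these medians. Sub-group medians are given as a description, since near copies in a group share reads and do not count as separate measurements.

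Each food odour was then set against no odour by the change in the ratio of pulldown to input. The 3 contrasts share the same 5 pools without odour. The median log2 change of the 38 receptors was 0.12 for the NCD contrast, 0.18 for BFD and 0.28 for HFDlard, with 25, 27 and 27 receptors above 0. All genes had medians of -0.0046, 0 and -0.01, and the 907 receptors 0.23, 0.29 and 0.27. The sign of these medians depends on the scaling. When the libraries were scaled on the receptors alone, the medians of the 38 were -0.11, -0.14 and -0.01, while the medians of all genes moved to -0.24, -0.31 and -0.30.

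At an adjusted p under 0.001 no member changed with NCD odour, where 0.359% of all genes were higher and 0.165% lower. At an unadjusted p under 0.05, 4 members (10.5%) were higher and 1 (2.63%) was lower, fewer for their number than the 13.9% and 14% of all genes. Of the 907 receptors, 188 were higher and 17 lower with NCD odour at that threshold. DESeq2 called 0 members at its adjusted p under 0.001. With BFD odour 2 members rose, Olfr749 and Olfr721-ps1, against a background of 2.47% higher and 1.32% lower. With HFDlard odour 1 member rose, Olfr749, against 0.699% higher and 0.52% lower. No member was lower at this threshold with any odour, and neither was any of the 907 receptors. At an unadjusted p under 0.05, 11 of the 38 were higher with BFD odour, 10 with HFDlard odour and 0 lower. Of all genes, 17.2% and 14.4% were higher and 16.4% and 15.2% lower. Of the 907 receptors, 199 and 193 were higher and 15 and 21 lower. As shares of the 38, 2 is 5.26% and 1 is 2.63%, beside the 3.75% and 1.32% of the 907 receptors that were higher with the same odours.

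**Figure D3:**
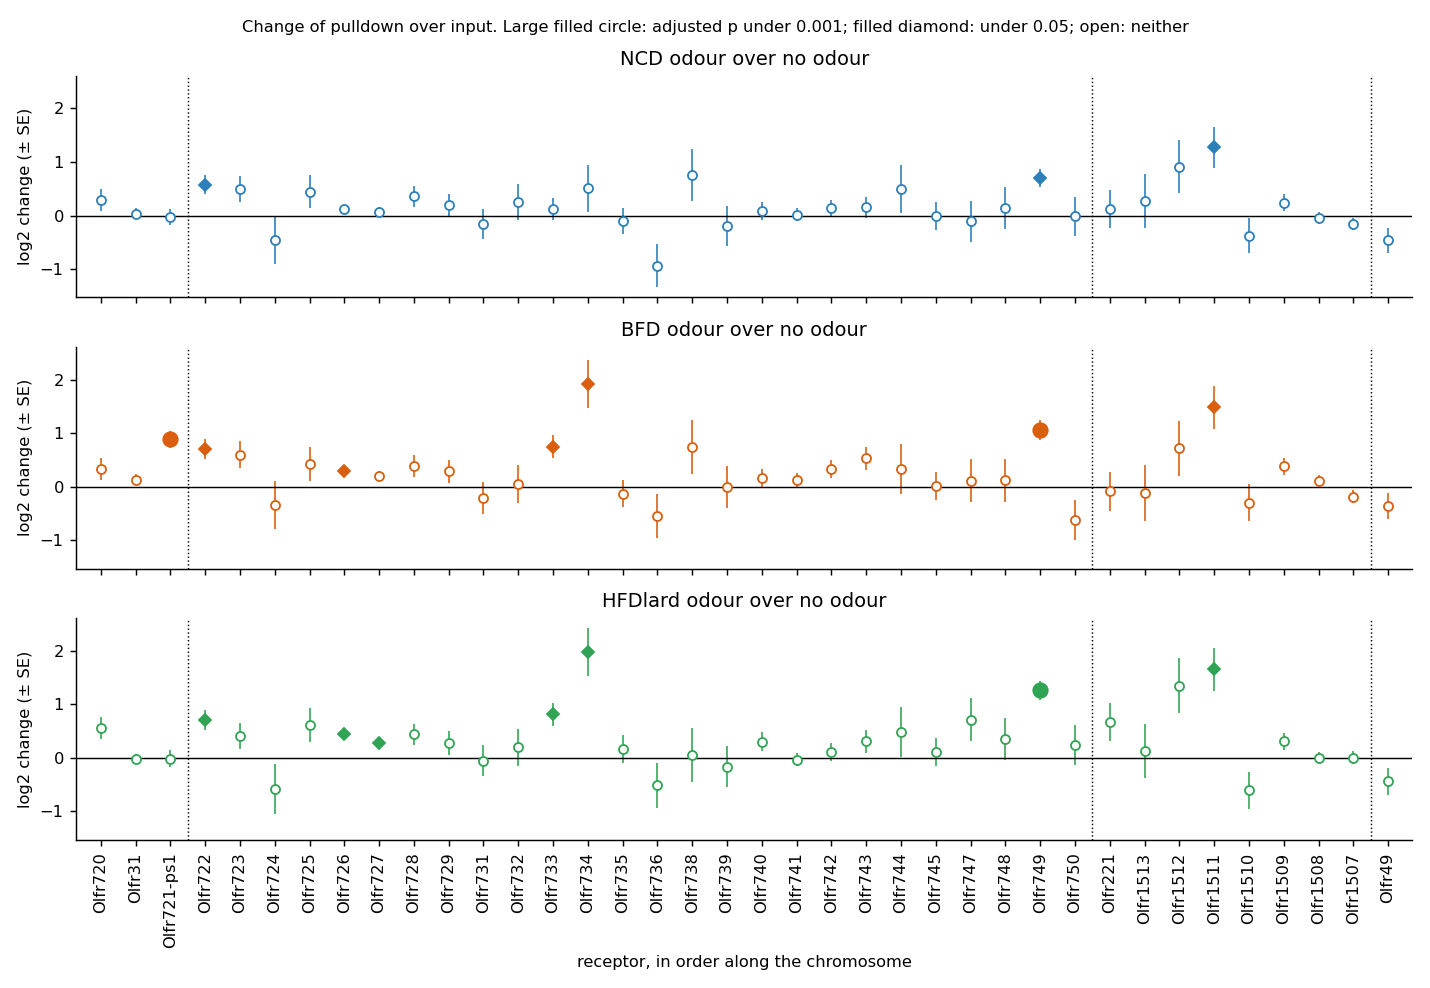
Log2 change of pulldown over input from no odour (points, with SE) for the 38 receptors along the chromosome, one panel for each odour. Large filled circles mark Olfr749 and Olfr721-ps1 with BFD odour and Olfr749 with HFDlard odour, and filled diamonds mark an adjusted p under 0.05.

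Olfr749 was the receptor that rose with BFD and HFDlard odour. Its pulldown held 64 to 109 counts in the pools without odour, against 149 to 214 in the NCD, 151 to 235 in the BFD and 172 to 305 in the HFDlard pools, while its inputs held 46 to 87 counts throughout. Its log2 ratio of pulldown to input was 0.89, 0.52, 0.31, 0.49 and 0.92 in the pools without odour. With NCD odour it ran from 1.04 to 1.74 with a median of 1.36. The lowest pool with NCD odour thus lay above the highest without.

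With BFD odour the log2 ratio of Olfr749 was 1.42, 1.72, 1.87, 1.76 and 1.57, and with HFDlard odour 1.63, 2.28, 1.58, 1.95 and 1.90. All 16 pools with an odour exceeded all 5 without. The fitted log2 change was 1.26 ± 0.18 with HFDlard odour, or 2.39-fold (edgeR, adjusted p = 8.43e-05), and 1.06 ± 0.18 with BFD odour, or 2.08-fold (adjusted p = 0.000285). With NCD odour it was 0.70 ± 0.18, or 1.63-fold, and did not pass (adjusted p = 0.0107).

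The odours themselves were not told apart by Olfr749. Its log2 change was greater by 0.56 with HFDlard than with NCD odour (95% interval 0.22 to 0.89), by 0.36 with BFD than with NCD odour (0.03 to 0.69) and by 0.20 with HFDlard than with BFD odour (-0.15 to 0.55), with adjusted p of 0.665, 0.684 and 0.807 in edgeR's test. The call for BFD odour was lost with the libraries scaled on the receptors (log2 change 0.74, adjusted p = 0.00322), with the ribosomal RNA share in the fit (0.97, adjusted p = 0.0353), with only the compared groups in the fit (1.08, adjusted p = 0.00407), and without BFD pool 2 or pool 3 (adjusted p = 0.00126 and 0.00142). With only the compared groups in the fit the call for HFDlard odour was lost too (adjusted p = 0.00251). With Olfr747 added to Olfr749, the log2 change of the pair was 0.44 for NCD, 0.80 for BFD and 1.10 for HFDlard, and the last of these alone passed (adjusted p = 0.000366). Olfr747 by itself had log2 changes of -0.11, 0.11 and 0.72, with intervals that all held 0.

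Olfr721-ps1 rose with BFD odour and was the member that differed between odours at an adjusted p under 0.05. Its log2 ratio was -0.38, -0.05, -0.65, -0.60 and -0.21 without odour, and -0.69 to 0.02 (median -0.42) with NCD odour. With BFD odour it was 0.13, 0.56, 0.80, 0.65 and 0.34, and with HFDlard odour -0.17, -0.49, -0.46, -0.40 and -0.45. All 5 BFD pools lay above every pool of the other groups, and the no odour, NCD and HFDlard pools overlapped.

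The fitted change of Olfr721-ps1 with BFD odour was 0.88 ± 0.16 on the log2 scale, or 1.84-fold (edgeR, adjusted p = 0.000339). With NCD odour it was -0.02 (95% interval -0.31 to 0.28) and with HFDlard odour -0.02 (-0.33 to 0.29). In counts, its pulldown held 251 to 313 with BFD odour and 112 to 227 in the other groups, and its inputs 175 to 322. The log2 change of its input level with BFD odour was -0.30 ± 0.13 and did not pass (adjusted p = 0.0633). The call was lost with the libraries scaled on the receptors (log2 change 0.57, adjusted p = 0.00549), with the ribosomal RNA share in the fit (1.00, adjusted p = 0.0115), with only the compared groups in the fit (0.90, adjusted p = 0.00463), and without no-odour pool 4 or BFD pool 2, 3 or 4 (adjusted p of 0.0012 to 0.00184).

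Between the odours, none of the 38 receptors differed at an adjusted p under 0.001 in edgeR's test, where 0.0378% of all genes did between HFDlard and BFD odour, 0.0236% between HFDlard and NCD odour and 0.00945% between BFD and NCD odour. At an unadjusted p under 0.05, 2 members were higher and 1 lower with HFDlard than with BFD odour, 6 were higher with HFDlard than with NCD odour, and 5 were higher with BFD than with NCD odour. The shares of all genes at that unadjusted threshold were 3.48% higher and 4.52% lower, then 2.38% and 2.24%, and 3.69% and 3.55%, in the same order. At an adjusted p under 0.05 Olfr721-ps1 was the member that differed. It was lower with HFDlard than with BFD odour by -0.90 ± 0.15 (adjusted p = 0.00506) and higher with BFD than with NCD odour by 0.90 ± 0.15 (adjusted p = 0.00733), against 0.109% and 0.0283% of all genes at that threshold, and no member differed between HFDlard and NCD odour, where 0.0709% of genes did. DESeq2 placed 1 member, Olfr721-ps1, under 0.001, as did the edgeR fit without a filter on low counts.

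A looser threshold, an adjusted p under 0.05, was passed in the higher direction by 3 members in the NCD contrast, 7 in the BFD and 7 in the HFDlard contrast, against 6.79%, 12% and 7.67% of all genes. Olfr722, Olfr749 and Olfr1511 passed it with each of the 3 odours, and Olfr726, Olfr733 and Olfr734 with BFD and HFDlard odour. Olfr727 passed it with HFDlard odour, and Olfr721-ps1 with BFD odour.

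Olfr722 has no near copy on the chromosome, with 77.1% of coding bases matching its nearest relative, and no 31-base word shared with another gene. Its log2 ratio was 1.18, 0.94, 1.15, 0.88 and 0.57 without odour, 1.18 to 1.76 (median 1.56) with NCD odour, 1.04, 2.11, 1.83, 1.64 and 1.56 with BFD odour and 1.68, 2.17, 1.70, 1.62 and 1.09 with HFDlard odour. The groups overlapped with BFD and HFDlard odour. The log2 changes were 0.58 ± 0.18, 0.70 ± 0.19 and 0.71 ± 0.19 with NCD, BFD and HFDlard odour (adjusted p = 0.0324, 0.00765 and 0.0113 in edgeR's test).

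Olfr734 had the largest log2 changes of the 38, 1.92 ± 0.45 with BFD odour and 1.97 ± 0.45 with HFDlard odour (edgeR, adjusted p = 0.00322 and 0.00444), on few reads. Its pulldown counts were 9, 10, 2, 5 and 8 without odour, 11 to 19 in the NCD pools, 17, 22, 25, 17 and 38 in the BFD pools and 24, 42, 22, 24 and 33 in the HFDlard pools. All pools of the BFD and HFDlard groups held more pulldown counts than any without odour, and its inputs held 11 to 30. Its log2 change with NCD odour was 0.51 ± 0.43 (adjusted p = 0.479).

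Olfr733 is expressed more than Olfr734, its neighbour, with 47 to 144 pulldown counts. Its log2 ratio was 0.37, -0.02, 0.61, 0.61 and 0.11 without odour, 0.71, 1.15, 1.57, 0.78 and 1.06 with BFD odour and 0.90, 1.21, 0.93, 1.00 and 1.59 with HFDlard odour, so that the BFD and HFDlard pools lay above those without odour. The log2 changes of Olfr733 were 0.75 ± 0.21 and 0.81 ± 0.21 (adjusted p = 0.012 and 0.011), and 0.13 ± 0.20 with NCD odour. Its near copy Olfr732, with 93.5% of aligned coding bases the same, was not summed with it. Olfr732 had log2 changes of 0.26 ± 0.33, 0.05 ± 0.35 and 0.20 ± 0.35 with NCD, BFD and HFDlard odour. For both Olfr733 and Olfr734 the fitted change was smallest with NCD odour, and neither differed between odours at an adjusted p under 0.05.

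Olfr726 and Olfr727, the 3rd and the 2nd of the 39 by level, passed the looser threshold with smaller log2 changes than the receptors above. Olfr726 matches 94.0% of the aligned coding bases of Olfr727 and 96.0% of those of Olfr725, so the 2 are not separate measurements. Summed with Olfr725, Olfr726 had a log2 change of 0.30 with BFD odour (edgeR, adjusted p = 0.0124), beside 0.29 alone. The log2 ratio of Olfr726 was 0.18, 0.14, 0.04, 0.03 and -0.09 without odour and 0.50, 0.47, 0.64, 0.53 and 0.36 with HFDlard odour, with no overlap. The log2 change was 0.44 ± 0.09, or 1.36-fold, and this was the uncalled member nearest to the threshold with HFDlard odour (edgeR, adjusted p = 0.00191). DESeq2 called it with an adjusted p of 0.000238. Changes of this size lie near the shift of the whole family: scaled on the receptors, Olfr726 had 0.15 with HFDlard odour and -0.02 with BFD odour, and Olfr727 had -0.01 with HFDlard odour in place of 0.28.

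Olfr1511 had log2 changes of 1.27 ± 0.38, 1.48 ± 0.40 and 1.65 ± 0.40 with NCD, BFD and HFDlard odour (adjusted p = 0.0283, 0.00808 and 0.00655). Its pulldown counts were 11, 3, 21, 26 and 25 without odour, and the log2 ratio of -2.68 in pool 2 rests on the 3 counts. Olfr1510 moved the other way, by -0.38, -0.30 and -0.60, none of them past an unadjusted p of 0.05. Added up, Olfr1511 and Olfr1510 had log2 changes of 0.55, 0.70 and 0.66 (adjusted p = 0.061, 0.0144 and 0.0284).

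**Figure D4:**
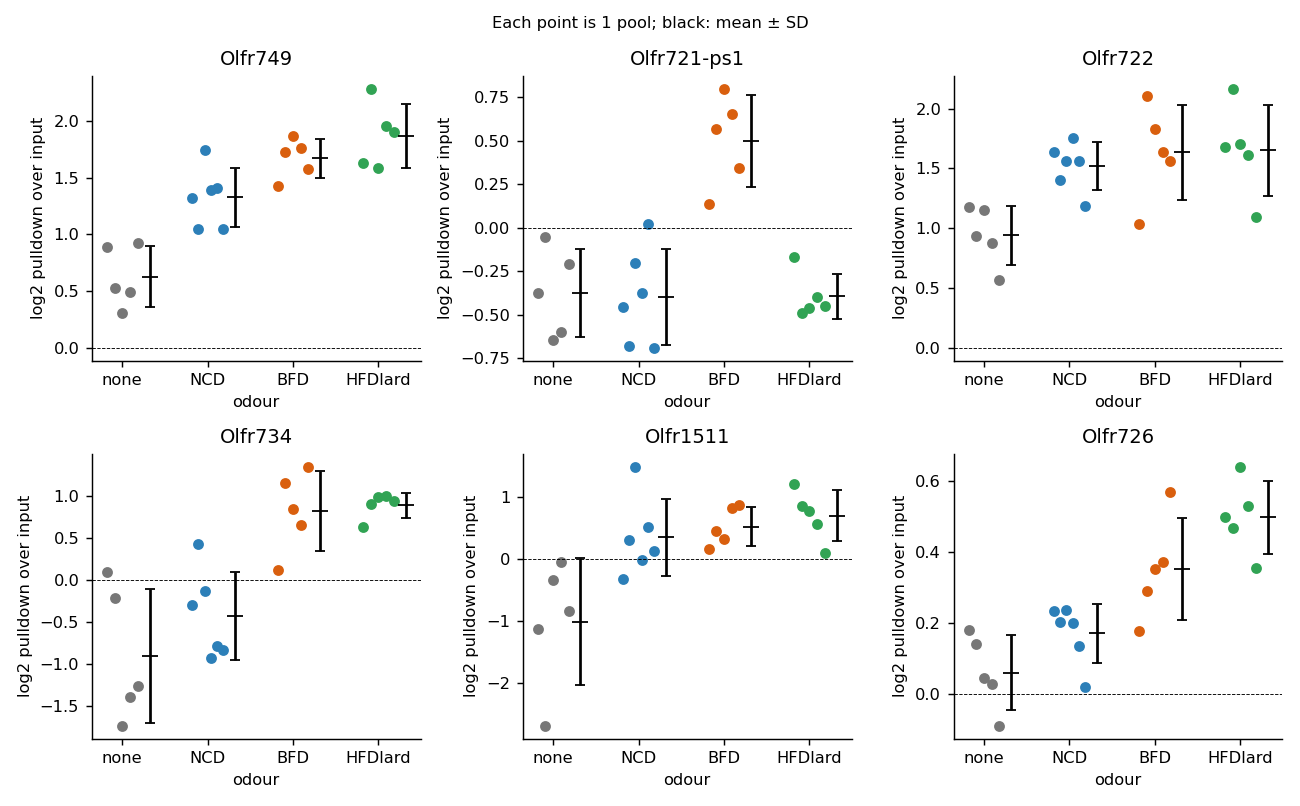
Log2 ratio of pulldown to input in each pool (points) with the mean ± SD beside them, for 6 receptors. All pools with an odour lie above those without for Olfr749, and the 5 BFD pools of Olfr721-ps1 lie above all its others.

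Counted by pools rather than by the fit, all pools with NCD odour lay above all pools without odour for 2 of the 38 members, Olfr722 and Olfr749. With BFD odour this held for 6, Olfr721-ps1, Olfr733, Olfr734, Olfr749, Olfr1509 and Olfr1511, and with HFDlard odour for 6, Olfr726, Olfr733, Olfr734, Olfr749, Olfr1511 and Olfr1512. For no member did all pools with an odour lie below. They did for 4.45%, 6.2% and 5.46% of all genes with NCD, BFD and HFDlard odour, but for only 0.11%, 0.331% and 0.441% of the 907 receptors. By the same count, 5.73%, 6.45% and 5.04% of all genes tested lay above with NCD, BFD and HFDlard odour, and 7.17%, 7.06% and 8.71% of the 907 receptors, beside 5.26%, 15.8% and 15.8% of the 38.

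Beside the H enhancer, Olfr1507, Olfr1508 and Olfr1509 did not pass the threshold in the pulldown ratio with any odour. The log2 change of Olfr1507 was -0.15 (95% interval -0.38 to 0.07) for NCD, -0.19 (-0.42 to 0.05) for BFD and -0.0010 (-0.24 to 0.24) for HFDlard odour. For Olfr1508 the 3 changes were -0.04, 0.11 and -0.0027, and for Olfr1509 0.24, 0.38 and 0.31. The 95% intervals of Olfr1507 reach no higher than 0.24 on the log2 scale.

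The inputs, fitted on their own, showed whether the amount of a receptor's RNA in the tissue differed between groups. In such bulk samples fewer cells of a type and less RNA per cell cannot be told apart. With BFD odour 2 members differed from no odour at an adjusted p under 0.001, both higher, against 13.7% of all genes in either direction. Of the 877 receptors tested in the inputs, 3 were higher, these 2 among them, and 1 was lower. With NCD and HFDlard odour 0 did, against 0.998% and 0.963%. At an unadjusted p under 0.05 the inputs had 2 members higher and 2 lower with NCD odour, 4 higher and 2 lower with BFD odour, and 6 higher and 1 lower with HFDlard odour. Of all genes, 17.4% were higher and 18.2% lower with NCD odour at that threshold, 23.4% and 23.8% with BFD odour, and 17.5% and 17.4% with HFDlard odour. The members thus did not exceed the shares of all genes. Of the 877 receptors tested in the inputs, 61, 74 and 101 were higher and 40, 52 and 33 lower, in the same order.

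The 2 members were Olfr1507 and Olfr1508. The input level of Olfr1507 was 42.9, 40.6, 47.1, 60.2 and 66.2 CPM without odour and 74.7, 72.9, 91.1, 80.8 and 73.0 CPM with BFD odour, with no overlap. It was 55.1 to 62.2 CPM (median 58.7) with NCD odour and 63.1, 82.2, 68.7, 69.7 and 60.4 CPM with HFDlard odour. The log2 change with BFD odour was 0.61 ± 0.11, or 1.53-fold (edgeR, adjusted p = 0.00017), beside 0.19 ± 0.10 with NCD odour (adjusted p = 0.195) and 0.42 ± 0.11 with HFDlard odour (adjusted p = 0.00908).

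Olfr1508 had 15.0, 12.9, 14.9, 18.0 and 21.8 CPM in the inputs without odour and 21.8, 23.3, 26.5, 22.7 and 21.9 CPM with BFD odour, so its lowest BFD pool and its highest pool without odour nearly met. Its log2 change was 0.49 ± 0.11, or 1.41-fold (edgeR, adjusted p = 0.000762). It held 17.2 to 19.7 CPM with NCD odour and 20.1 to 28.2 CPM with HFDlard odour, where its log2 change was 0.48 ± 0.11 (adjusted p = 0.00369). Both receptors were highest without odour in pools 4 and 6, in the input and, for Olfr1507, in the pulldown too, where it had 26.4, 28.8, 28.6, 48.1 and 58.3 CPM.

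Ribosomal RNA took 23.8, 27.9, 24.7, 28.1 and 19.2% of the same inputs without odour. It took 9.75, 9.66, 10.2, 10.9 and 12.7% of the BFD inputs, with no overlap. The share and the odour thus moved together, and a fit that holds both cannot separate them well. With this share in the fit, the log2 change of Olfr1507 with BFD odour was 0.06 (adjusted p = 0.99) and that of Olfr1508 was -0.14 (adjusted p = 0.963). With only the compared groups in the fit the adjusted p were 0.00331 and 0.00748. With ribosomal RNA genes left out of the table before normalisation both were still called. The call for Olfr1507 held without any single pool, with log2 changes of 0.53 to 0.72, whereas Olfr1508 passed in 12 of the 31 alternatives run. Without no-odour pool 6 both were also called with HFDlard odour, together with Olfr741. Mature sensory neuron markers had a median summed level of 16010 CPM in the inputs without odour and 16050 with BFD odour. This sum follows its most abundant genes and does not show that each marker was level. Of the 10, 1 was higher and 2 were lower at an adjusted p under 0.001, beside 5.41% and 8.34% of all genes.

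**Figure D5:**
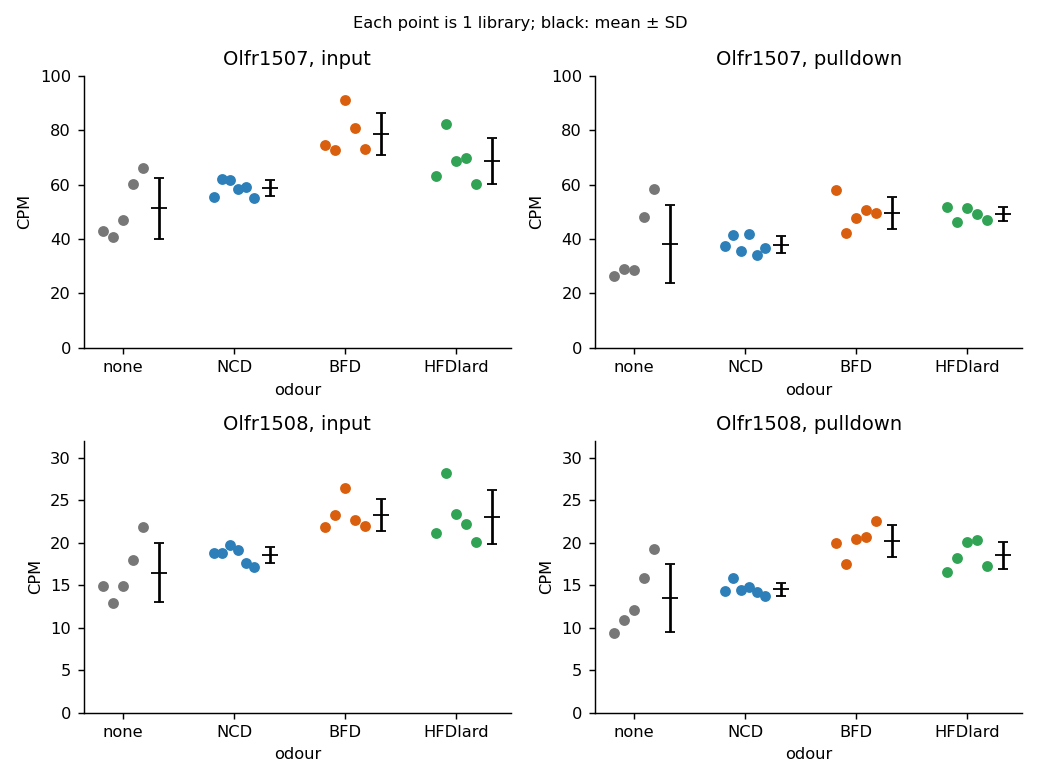
Level of Olfr1507 and Olfr1508 in each input and pulldown library (points) in CPM, with the mean ± SD beside them. In the inputs the 5 BFD libraries of Olfr1507 lie at 72.9 to 91.1 CPM, above the 40.6 to 66.2 CPM without odour, and the libraries without odour spread most.

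At an adjusted p under 0.05, 7 members differed in the inputs with at least 1 odour, while 23.5%, 39.8% and 21.7% of all genes did with NCD, BFD and HFDlard odour. Besides Olfr1507 and Olfr1508, these were Olfr741 (log2 change 0.40 with HFDlard odour), Olfr747 (-0.82 with HFDlard odour), Olfr750 (0.63 with BFD odour), Olfr1509 (-0.38 with NCD odour) and Olfr1510 (0.70 with NCD and 0.90 with HFDlard odour). Olfr747 and Olfr1510 rest on 12 to 46 and 10 to 34 input counts and have near copies. Olfr1509, with no word shared with another gene, had 4.36 ± 0.622 CPM over the 21 inputs. Olfr749 and Olfr721-ps1, which rose in the pulldown ratio, had input log2 changes of -0.07 and -0.30 with BFD odour, and neither passed.

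Genes that serve every receptor were followed by lists. Of 19 genes of receptor choice and enhancer binding, 13 were higher in pulldown than in input without odour and 2 lower, against 19.8% and 16% of all genes, with Lhx2 at a log2 ratio of 1.40, Atf5, the stress factor that stabilises receptor choice, at 1.45, Ldb1 at 0.88 and Nfia at -0.64. None of the 19 changed with an odour at an adjusted p under 0.001, and in the inputs with BFD odour 2 were higher and 1 lower, beside 5.41% and 8.34% of all genes. In the NCD and HFDlard inputs 1 of the 19 was lower each time, beside 0.425% and 0.328% of all genes. Of 15 genes of odour transduction, 8 were higher and 1 lower in pulldown without odour, against the same background, with Adcy3, the cyclase that makes cyclic AMP, at 0.77 and Cnga2, a subunit of the channel that cyclic AMP opens, at 0.64. With BFD odour 2 of the 15 rose, where 2.47% of all genes did, Omp by 0.64 and Gng13 by 1.33 on the log2 scale, and with NCD and HFDlard odour 0 did. The inputs of both fell with BFD odour, Omp by 0.45 and Gng13 by 1.17 on the log2 scale.

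Of 12 activity-dependent genes, 5 were higher in the NCD inputs, 5 in the BFD inputs and 4 in the HFDlard inputs, against 0.572%, 5.41% and 0.636% of all genes, with Fos at log2 changes of 1.55, 1.63 and 1.45. In the pulldown ratio 0 of the 12 changed with NCD odour, beside 0.359% of all genes higher and 0.165% lower. With BFD odour 1 was higher and 1 lower, beside 2.47% and 1.32%. With HFDlard odour 0 were higher and 1 was lower, beside 0.699% and 0.52%. Of 4 gland markers, 2 were higher in the pulldown ratio with each odour, beside 0.359%, 2.47% and 0.699% of all genes with NCD, BFD and HFDlard odour. At an adjusted p under 0.05, 1 of the 4 was lower each time, beside 6.31%, 10.5% and 8.03% of all genes. The summed pulldown level of the gland markers was 3935 to 5648 CPM without odour against 12860 to 25990 CPM with one. Such a sum follows the most abundant of the 4. In the inputs it was 6911 to 16890 CPM without odour. With NCD, BFD and HFDlard odour the input sum was 9090 to 9779, 13720 to 16840 and 11400 to 13190 CPM. The part of the gland markers in the changes of Olfr749 and Olfr721-ps1 was not tested.

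Promoter windows of RefSeq, 250 bases before to 50 after the annotated start on GRCm38.p6, were matched for 32 of the 39 members. TAATTA, the core that homeodomain factors such as Lhx2 bind, occurred on either strand in 6 of the 32, or 18.8%, beside 18.6% of the 947 receptor windows and 5.29% of all 32851 windows. CCCNNGGG, the core bound by Ebf factors, occurred in 0 of the 32, beside 3.06% of receptor windows and 13.7% of all. Only 2 of the 32 RefSeq starts, those of Olfr722 and Olfr1508, lie within 100 bases of the start in the annotation used for counting, so most windows are not the promoter of the counted transcript.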

How the data were processed

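Pulldown and input libraries of 21 pools were analysed. Per the labels and the methods, the authors amplified the RNA with the Ovation RNASeq V2 kit, made Nextera XT libraries, ran the nf-core rnaseq pipeline on GRCm38 and deposited Salmon's estimated counts (expected counts) per gene without normalization. Salmon splits reads shared by several genes, and 30.87% of the values were not whole. Results of the authors' own DESeq2 test were not used.

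The counts were rounded and filtered with filterByExpr (minimum count 10), which left 21168 genes, 907 receptors and 38 of the 39 members. All 42 libraries were normalized by TMM and fitted with edgeR's robust quasi-likelihood method, with pools and the pulldown effect of each odour as terms (edgeR 4.0.16, limma 3.58.1, R 4.3.3) and a common biological coefficient of variation of 12%. The inputs were fitted separately (20451 genes). All p-values are 2-sided and adjusted over all genes with the Benjamini-Hochberg method, with the study's threshold of 0.001. The log2 values of single pools use a prior count of 2. The 95% intervals are the fitted log2 change with the normal limits of its SE. DESeq2 1.42.0 and other settings were run as alternatives. The fits were run on simulated counts, drawn from the mean of each library type with 1 common dispersion. These held no pool effect, no ribosomal RNA shift with odour and no reads shared between copies, so they do not bear on those features.

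Groups and replicate numbers came from the sample labels. Nothing in them says that equal numbers in different odours share a day or litter, or that pools are separate experiments, so p-values measure the spread between these pools. Equal-numbered pools correlated at a median of 0.02 in their deviations from the group means, with 3 of 27 pairs above 0.1, and pools with unequal numbers at -0.002, so the numbers were not taken as pairs. Within an odour, pulldown and input were matched by number. A pulldown correlated at a median of 0.014 with its own input and -0.004 with another of its group. The matching therefore rests on the labels and is not seen in the counts. The 90 pairs of libraries within groups all differed beyond counting noise, with a chi-square of at least 3.27 per degree of freedom. Receptors named were those called in any contrast, up to 12 more at an adjusted p under 0.05 with an odour, the highest and lowest ratios without odour, the 5 highest levels, Olfr1507 to Olfr1511, and those nearest the threshold. The members and the gene lists were chosen with earlier results of these data known.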

Additional observations from a re-analysis of the deposited data

Results flagged for a closer look

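Of 84 groups of 5 or 6 pools examined for the named receptors, 5 held a pool whose distance from the others was large for the group's range, where chance gives about 4.2. Olfr721-ps1 had a log2 ratio of pulldown to input of -0.168 in HFDlard pool 1, above the -0.492 to -0.4 of the other HFDlard pools. Olfr1508 had -0.665 in no-odour pool 1, below the -0.29 to -0.178 of the others. Olfr734 had 0.631 in HFDlard pool 1, below 0.898 to 0.996, on 24 pulldown counts. Olfr727 had 0.428 in no-odour pool 2, above 0.0695 to 0.164, and 0.0999 in BFD pool 1, below 0.419 to 0.497. HFDlard pool 1 was thus the outlying pool for both Olfr721-ps1 and Olfr734, in opposite directions.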

How the results depend on the processing

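Without odour, the 7 receptors higher in pulldown became 14 at an adjusted p under 0.05, and the 2 lower became 8, or 1 without the replicate block of pulldown and input in a pool. For NCD odour 0 became 3 at 0.05. For BFD odour the 2 receptors became 0 with TMM on the receptors, 0 with a replicate block across odours, 0 with the ribosomal RNA share in the fit and 0 with the compared groups only, 1 with near copies summed and 7 at 0.05. For HFDlard odour the 1 receptor became 3 with DESeq2, 0 with the replicate block, 0 with the compared groups only and 7 at 0.05. Between odours 0 became 1 without the filter, 1 with DESeq2 and 1 at 0.05. In the inputs 2 became 1 with the replicate block, 0 with the ribosomal RNA share, 0 with the compared groups only and 7 at 0.05. The fits on the compared groups rest on fewer libraries. For the other changes the cause was not tested. Under the replicate block across odours Olfr749 had log2 changes of 1.06 with BFD odour (adjusted p = 0.00182) and 1.26 with HFDlard odour (0.00121), and Olfr721-ps1 had 0.85 with BFD odour (0.00237). The replicate numbers do not pair the pools, and 1 of 21 pools correlated best with its own number, so a call lost under that block is no sign of a smaller effect.

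TMM on the receptors took the median log2 changes to -0.112, -0.138 and -0.0118 for NCD, BFD and HFDlard odour, and turned Olfr726 with BFD odour to -0.0215 and Olfr727 with HFDlard odour to -0.00996. The ribosomal RNA share turned Olfr1508 in the BFD inputs to -0.136. Leaving out each pool in turn gave 6 to 8 receptors higher and 2 to 2 lower without odour, 0 to 0 for NCD odour, 0 to 3 for BFD odour (0 without BFD pool 2 or pool 3, 1 without BFD pool 4 or no-odour pool 4), 1 to 2 for HFDlard odour (2 without BFD pool 1), 0 to 0 between odours and 1 to 3 in the inputs. The medians ran from 0.0419 to 0.122 without odour, and from 0.0836 to 0.14, 0.145 to 0.269 and 0.236 to 0.336 for the 3 odours. Of the named receptors' fits under other settings, 243 of 265 kept their direction and their side of the threshold, and 522 of 546 did when a pool was left out. A replicate block could not give the ratio without odour. Copies summed and leaving out ribosomal RNA genes were chosen after the data were seen. Depth limits Olfr734, Olfr1510, Olfr1511 and Olfr747, which had few counts.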
